A study of Mus musculus with 14 samples.

Results

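The RNA of 8 genes whose proteins are known substrates of USP22 (Sirt1, Kdm1a, Terf1, Fubp1, Ccnb1, Cd274, Nfatc2 and Hif1a) was followed in mammary epithelial cells (MECs) of mice that overexpress Usp22. The genes were chosen by name, because their proteins are described as deubiquitinated by USP22, and all 8 of the 8 names were found among the 16124 genes of the table. With limma and the threshold used in the study, an unadjusted p of 0.05 or less, 1 of the 8 was called between the genotypes within littermate pairs, where 3.81% of all genes were, and with the study's own per-gene paired test 0 of the 8 was called. That gene was Nfatc2, a calcium-regulated transcription factor, which averaged 3826 ± 1505 normalized counts (fragments per gene, scaled for library depth by the authors) over WT mice and 4602 ± 1597 over Usp22 OE/OE mice (SD, n = 7), and it passed neither adjustment for the number of genes tested nor an exact test over the 7 pairs (p = 0.0625). For Sirt1, Kdm1a, Terf1, Fubp1, Cd274 and Hif1a the log2 difference lay between -0.03 and 0.08, and for Ccnb1, the mitotic cyclin B1, single pairs differed in both directions by far more than the group means did.

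USP22 is a ubiquitin protease. It works as a subunit of the SAGA chromatin complex, where it takes ubiquitin off histones H2A and H2B, and it also removes ubiquitin from other proteins, which for most of its substrates slows their breakdown by the proteasome. FUBP1 differs in that removal of ubiquitin is described as altering its binding to target genes more than its amount. Stabilisation of a protein acts after transcription, so the question put to RNA-seq here was whether the transcripts of these substrates differ as well.

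The samples were MECs from 7 littermate pairs of nulliparous females aged 3.5 months, each pair holding 1 wild-type (WT) mouse and 1 Rosa26KI-Usp22 OE/OE mouse, with 1 library per mouse and the pair numbers 1 and 3 to 8 taken from the labels. OE/OE mice carry on both ROSA26 alleles a FLAG- and MYC-tagged mouse Usp22 cDNA behind the CAGGS promoter, whose loxP-flanked stop cassette had been removed in the germ line with Zp3-cre, so that overexpression is ubiquitous and not confined to the mammary epithelium. The MECs were obtained by enzymatic digestion and pulse centrifugation of glands, which enriches epithelial organoids without a cell sort. In such bulk samples, fewer cells of a type and less RNA per cell cannot be told apart.

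Libraries held 20125106 to 41835978 fragments (median 37546978 in WT and 38130881 in OE/OE). Usp22 itself ran from 3500 to 5380 normalized counts in WT and from 74948 to 144288 in OE/OE, a 25.1-fold difference (limma log2 difference 4.65, standard error 0.11, adjusted p = 4.74e-08), and reads of the endogenous gene and of the cDNA are counted together. The MECs had the markers of their labelled cell type, with Krt8, a luminal keratin, at 132564 ± 29257 and Epcam, an epithelial adhesion protein, at 47953 ± 10721 normalized counts in WT (SD, n = 7). Endothelial, fibroblast and immune transcripts were present too. Of 12 epithelial markers, 8 had a log2 difference above 0 and 4 below. Cldn7 (0.35) and Elf3 (0.43) were called higher in OE/OE, where 1.95% of all genes were. All 10 macrophage and dendritic cell markers lay below 0 (median -0.09), and none was called, where 3.81% of all genes were. Most fat cell markers were lower in OE/OE, with 6 of 10 called lower (1.85% of all genes were). None of the 10 was at 0 in any library, and their mean log2 level was 6.32 to 8.12 in WT and 5.28 to 7.24 in OE/OE. The 6 averaged 24.1 (Retn) to 205 (Cfd) normalized counts in WT. The more abundant Fabp4 (17495), Lipe (4164) and Plin4 (427) were not called. Their log2 differences were -0.36, 0.20 and -0.28, and Lipe alone of the 10 lay above 0. Of 10 fibroblast markers, all with a log2 difference below 0 (median -0.35), 2 were called lower, Lum and Pdgfra, none was at 0 in any library, and their mean log2 level ran from 12.4 to 13.4 in WT and from 11.7 to 13.04 in OE/OE. The OE/OE library of pair 4 stood apart: it was the highest or lowest of the 14 libraries for 52.4% of all genes and for 6 of the 8 substrate genes, being highest for Terf1, Kdm1a and Ccnb1 and lowest for Sirt1, Cd274 and Hif1a. The OE/OE library of pair 5 came next, at 37.3% of all genes, and was highest for Fubp1 and Nfatc2. The other libraries lay between 4.01% and 15.0%. The difference of each substrate gene is given with and without pair 4, the most extreme, and its range over the leaving out of each pair is given at the end.

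Across all genes, 614 of 16124 (3.81%) had an unadjusted limma p of 0.05 or less, 315 of them higher in OE/OE (1.95%). Nfatc2 was the 1 substrate gene among them. None of the 8 passed the Benjamini-Hochberg adjustment over all genes, which gave an adjusted p of 1.00 for each, and 2 genes of the table (0.0124%) did. The median log2 difference of the 8 was 0.04, against -0.0015 over all genes. In all 8 the ranges of the WT and OE/OE mice overlapped; over the table, 0.0434% of genes had groups that did not.

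**Figure D1:**
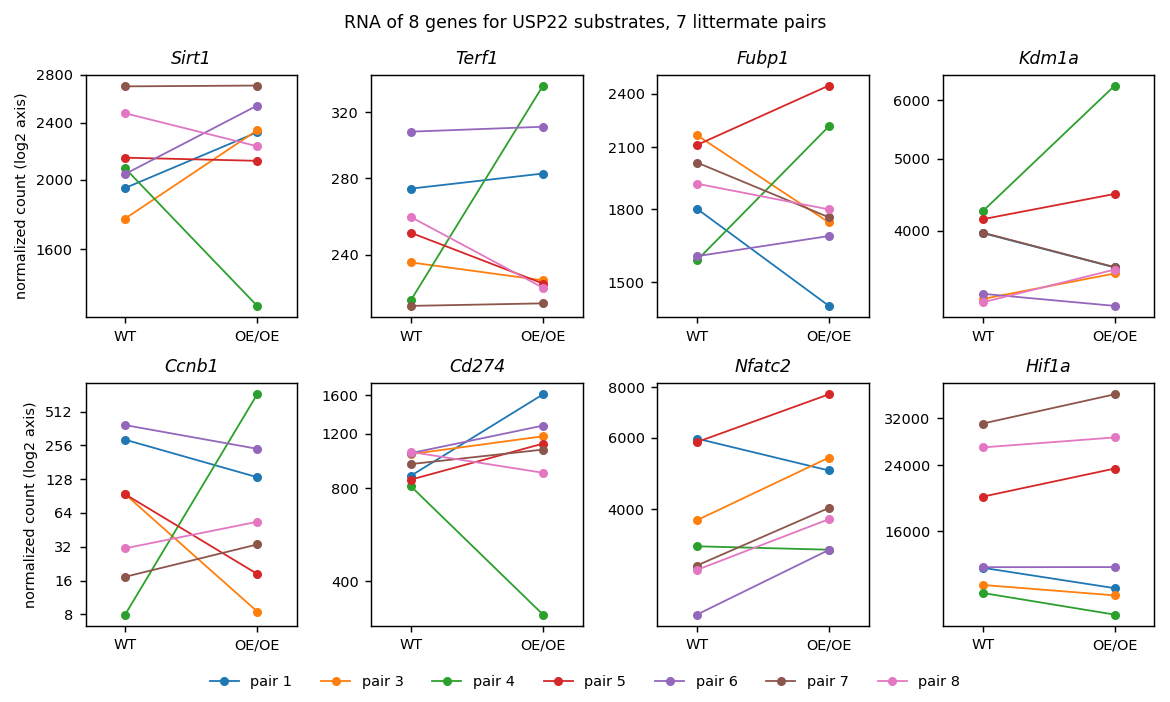
Normalized counts (vertical log2 axis, one range per gene) of the 8 genes in WT and OE/OE mice, with a line joining the littermates of each of the 7 pairs. Lines run both ways in every panel, and the pair 4 line is the steepest for Sirt1, Terf1, Fubp1, Kdm1a, Ccnb1 and Cd274.

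Sirt1 and Kdm1a encode chromatin enzymes. SIRT1 is an NAD-dependent deacetylase of histones and of transcription factors such as p53. Sirt1 (ENSMUSG00000020063.16, chromosome 10, 63319005 to 63381704, minus strand, GRCm38) ran from 1765 to 2698 normalized counts in WT, with a median of 2075, and from 1334 to 2706 in OE/OE, with a median of 2329. The log2 difference was 0.03 with a standard error of 0.12 and a 95% interval of -0.24 to 0.30 (limma p = 0.831, and p = 0.859 by exact sign flips of the 7 pair ratios, two-sided, called the exact p from here on). In 4 of 7 pairs it was higher in OE/OE. Pair 4 held the lowest value, in its OE/OE mouse, the other OE/OE mice lay between 2125 and 2706, and the groups overlapped. With pair 4 left out, the log2 difference was 0.14 (limma p = 0.146, exact p = 0.219).

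None of the 6 other sirtuin genes measured, Sirt2 to Sirt7, was called, where 3.81% of all genes were. Their log2 differences ran from -0.16 (Sirt3, a mitochondrial deacetylase) to 0.07 (Sirt5). Among genes with a mean of at least 50 normalized counts, the one whose level over the 14 libraries was most like that of Sirt1 was Myc, the growth-promoting transcription factor, with a Pearson r of 0.94 (0.87 without the OE/OE library of pair 4). Such correlations describe 14 libraries that share litters and cell makeup, and carry no test.

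KDM1A (LSD1) removes methyl groups from lysine 4 of histone H3 as a part of the CoREST repressor complex. Kdm1a (ENSMUSG00000036940.15, chromosome 4, 136550540 to 136602723, minus strand) ran from 3203 to 4249 normalized counts in WT, median 3971, and from 3168 to 6277 in OE/OE, median 3569. The OE/OE median was thus below that of WT, while the OE/OE mean, which includes the pair 4 mouse, was above that of WT (4017 and 3724). The log2 difference was 0.08 (standard error 0.09, 95% interval -0.12 to 0.29, limma p = 0.394, exact p = 0.500), with 4 of 7 pairs higher, and it was 0.0019 without pair 4 (limma p = 0.979, exact p = 1.00).

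The genes of the CoREST complex and its relatives gave 0 of 12 called in either direction, where 3.81% of all genes were called. Rcor1, the CoREST scaffold, had a log2 difference of 0.12 (limma p = 0.256, exact p = 0.281), and Hdac1 and Hdac2, its deacetylases, had -0.06 and 0.14. Their mean level was hardly related to that of Kdm1a over the 14 libraries (r = 0.20). Kdm1a was instead most like Ints5, a subunit of the Integrator complex (r = 0.95, and 0.85 without the OE/OE library of pair 4), and ran against the mean of 10 endothelial markers (r = -0.88, and -0.64 without that library). Its exons share no base with those of Luzp1, the neighbour on the opposite strand.

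Terf1 encodes TRF1, the shelterin subunit that binds double-stranded telomere repeats. Terf1 (ENSMUSG00000025925.14, chromosome 1, 15805646 to 15844052, plus strand) was one of the weakly expressed genes here, at 217 to 308 normalized counts in WT, median 251, and 218 to 338 in OE/OE, median 228. Its log2 difference was 0.04 (standard error 0.12, 95% interval -0.22 to 0.30, limma p = 0.738, exact p = 0.859). Pair 4 alone differed by 0.62 on the log2 scale, and the other 6 pairs lay between -0.20 and 0.04. Without pair 4 the difference turned to -0.06 (limma p = 0.543, exact p = 0.312).

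Shelterin genes other than Terf1, with the tankyrases and Fbxo4 that act on TRF1, gave 0 of 9 called, where 3.81% of all genes were. Their log2 differences lay between -0.12 (Pot1b) and 0.08 (Tnks2). Terf1 did not follow them over the libraries (r = 0.12). It followed a list of 22 mitotic genes (r = 0.91, and 0.87 without the OE/OE library of pair 4), and its closest genes were Cdc6, a replication licensing factor (r = 0.95), Cdca2 (r = 0.94) and Cdca3 (r = 0.93). The high Terf1 value in the OE/OE mouse of pair 4 thus stood beside a high mitotic level in the same library, and whether the one bears on the other was not tested.

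FUBP1 binds the far upstream element of the Myc promoter and regulates transcription and splicing. Fubp1 (ENSMUSG00000028034.15, chromosome 3, 152210422 to 152236826, plus strand) ran from 1584 to 2165 normalized counts in WT, median 1919, and from 1415 to 2450 in OE/OE, median 1764. It was the 1 gene of the 8 with a log2 difference below 0, at -0.03 (standard error 0.11, 95% interval -0.26 to 0.21, limma p = 0.810, exact p = 0.828). In 3 of 7 pairs it was higher in OE/OE. Without pair 4 the difference was -0.11 (limma p = 0.23, exact p = 0.250).

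Other genes linked to FUBP1 were not called either. Fubp3 and Khsrp, which encode related RNA- and DNA-binding proteins, had log2 differences of 0.07 and 0.06, and Puf60 had 0.03. Myc, the best known target of FUBP1, averaged 12641 normalized counts over WT and 12749 over OE/OE mice (log2 difference 0.0014). Cdkn1a, a cell cycle inhibitor that FUBP1 represses, had 0.02. Thus 0 of these 5 genes was called, where 3.81% of all genes were. Fubp1 was most like Dgcr8, a microRNA processing factor (r = 0.88), Eps15 (r = 0.87) and Parg (r = 0.86).

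Ccnb1 encodes cyclin B1, which activates CDK1 at the entry into mitosis and is destroyed at its end. Ccnb1 (ENSMUSG00000041431.16, chromosome 13, 100778650 to 100786570, minus strand) had 288, 94.1, 7.95, 94.0, 389, 17.3 and 31.0 normalized counts in the WT mice of pairs 1 and 3 to 8. The OE/OE littermates had, in the same order, 133, 8.48, 731, 18.3, 239, 33.6 and 53.4. The level therefore varied between mice of 1 genotype by more than it did between genotypes, the lowest WT mouse and the highest OE/OE mouse being littermates.

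The log2 difference of Ccnb1 was 0.09 (standard error 0.96), with a 95% interval from -2.06 to 2.24 that leaves a fold of 0.239 to 4.72 (limma p = 0.929, exact p = 0.953). At this spread a several-fold difference was not detectable. The SD over pairs of its log2 ratio was 3.16, wider than in 99.9% of all genes, whose median was 0.36. Pair 4 differed by 6.35, 4 pairs by -3.33 to -0.70 and pairs 7 and 8 by 0.92 and 0.77. The direction was not stable, since the value was -0.051 without pair 7, -0.026 without pair 8 and, without pair 4, -0.96 (limma p = 0.0953, exact p = 0.250) and the SD of the ratios 1.67. It was also below 0 on the recovered fragments, at -0.31 with edgeR and -0.34 with DESeq2.

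Other mitotic genes varied with Ccnb1 from mouse to mouse. The mean of 22 mitotic genes, Ccnb1 not among them, differed between littermates by -1.14, -1.91, 4.54, -1.20, -0.35, 0.17 and 0.19 on the log2 scale in pairs 1 and 3 to 8. Each of these values had the sign of the Ccnb1 ratio of its pair, and over the 14 libraries r was 0.98, with or without the OE/OE library of pair 4. The closest single genes were Ccnb2, the second B-type cyclin (r = 0.98), Shcbp1 (r = 0.98) and Kif22, a mitotic kinesin (r = 0.98).

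Between the genotypes, 1 of the 22 mitotic genes was called. Aurka, the centrosomal Aurora kinase, averaged 542 ± 173 normalized counts over the WT mice and 418 ± 145 over the OE/OE mice (SD, n = 7). Its log2 difference was -0.39 (standard error 0.12, limma p = 0.00869, exact p = 0.0469, adjusted p = 1.00), lower in 6 of 7 pairs, where 1.85% of all genes were called lower. Cdk1, the kinase partner of cyclin B1, had a log2 difference of 0.04 (limma p = 0.962, exact p = 0.969), and Mki67, a general marker of cycling cells, 0.15 (limma p = 0.846, exact p = 0.922). The list median of 0.08 lay close to the -0.0015 of all genes.

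**Figure D2:**
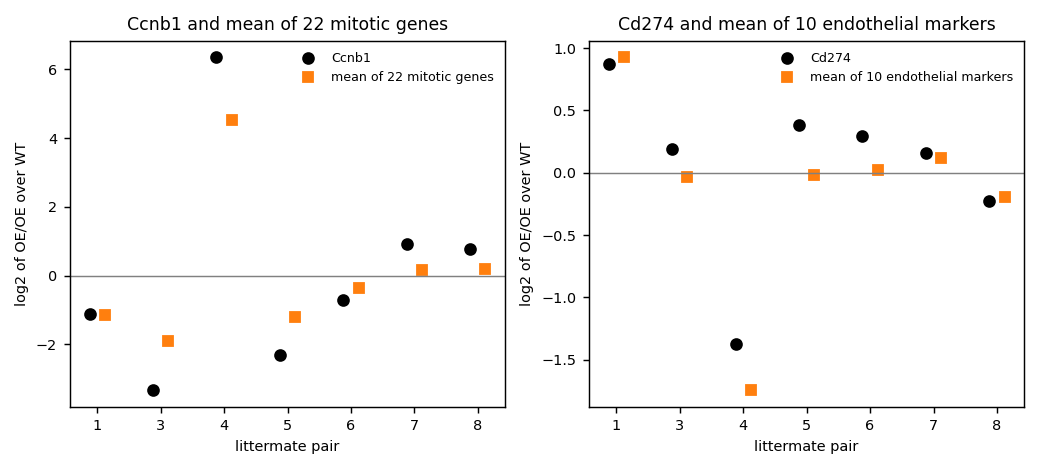
Log2 ratio of OE/OE over WT in each littermate pair (horizontal axis) for Ccnb1 beside the mean of 22 mitotic genes (left) and for Cd274 beside the mean of 10 endothelial markers (right). The mitotic mean reached 4.54 and Ccnb1 6.35 in pair 4, and the endothelial mean was -1.74 and Cd274 -1.38 in the same pair.

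Since mitotic transcripts varied together between mice, the promoters of Ccnb1, of Ccnb2, its closest gene, and of Cdk1, its kinase partner, are shown, each as the 250 bases before the RefSeq start site (GRCm38.p6, all 3 on the minus strand and printed 5′ to 3′ in the direction of the gene). They lie at chr13:100786487-100786736, chr9:70421555-70421804 and chr10:69352913-69353162. Capitals mark CCAAT, the box bound by NF-Y, and TTTGAA, a form of the cell cycle homology region, whose other forms were not searched. Both strands were searched, so that a box on the other strand reads ATTGG or TTCAAA.
Ccnb1: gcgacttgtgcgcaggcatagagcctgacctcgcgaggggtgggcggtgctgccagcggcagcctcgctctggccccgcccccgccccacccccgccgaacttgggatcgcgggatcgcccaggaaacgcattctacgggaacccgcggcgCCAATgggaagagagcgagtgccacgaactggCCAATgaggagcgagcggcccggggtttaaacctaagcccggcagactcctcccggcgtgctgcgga
Ccnb2: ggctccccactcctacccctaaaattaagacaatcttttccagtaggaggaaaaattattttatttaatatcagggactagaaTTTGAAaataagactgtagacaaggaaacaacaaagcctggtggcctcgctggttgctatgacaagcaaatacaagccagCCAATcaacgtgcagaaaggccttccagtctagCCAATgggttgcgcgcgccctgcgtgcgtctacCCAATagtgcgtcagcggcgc
Cdk1: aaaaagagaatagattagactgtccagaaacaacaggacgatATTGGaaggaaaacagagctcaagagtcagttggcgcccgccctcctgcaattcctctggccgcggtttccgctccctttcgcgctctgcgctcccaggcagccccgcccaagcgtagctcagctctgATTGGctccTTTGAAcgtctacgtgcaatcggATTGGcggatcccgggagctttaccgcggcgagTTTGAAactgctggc
The Ccnb1 promoter held 2 CCAAT boxes, with first bases 99 and 67 bases before the start, and no TTTGAA. That of Ccnb2 held 3, at 87, 54 and 21 bases, with 1 TTTGAA at 167, and that of Cdk1 held 3 on its other strand, at 208, 80 and 48 bases, with 2 TTTGAA at 71 and 15. Of 32851 mouse promoters of the same length, 33.8% held a CCAAT and 10.1% held 2 or more, whereas 16.0% held a TTTGAA. For the 14964 promoters of genes in the table, these shares were 34.6%, 12.1% and 11.1%. Among the 18 mitotic genes of the list with an entry, 15 held a CCAAT and 7 a TTTGAA. A match describes letters in a window, not a bound site.

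Of the other substrate genes with an entry, the Hif1a promoter also held 2 CCAAT, those of Fubp1 and Kdm1a held 1 each, and those of Sirt1, Cd274 and both Nfatc2 starts held none. None of them held a TTTGAA. Reads of Ccnb1 are uncertain in one respect: 3 processed pseudogenes (Gm12856, Gm8416 and Ccnb1-ps) match its transcripts over 1287 to 1294 bases at 97.3% to 99.2% identity. None of the 3 has a row among the 16124 genes, and how reads fitting several places were counted is not given in the sources used here.

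Cd274 encodes PD-L1, the ligand that restrains T cells through the receptor PD-1. Cd274 (ENSMUSG00000016496.7, chromosome 19, 29367455 to 29388095, plus strand) ran from 810 to 1047 normalized counts in WT, median 957. In the OE/OE mice of pairs 1 and 3 to 8 it had 1609, 1177, 312, 1114, 1274, 1066 and 897. The WT mice thus lay close together, and the OE/OE mice lay on both sides of them, with the mouse of pair 4 far below and 5 of 7 above their own littermate.

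The log2 difference of Cd274 was 0.04 (standard error 0.22, 95% interval -0.45 to 0.54, limma p = 0.848, exact p = 0.875). In single pairs it ran from -1.38 in pair 4 to 0.87 in pair 1. Without pair 4 the difference was 0.28 (limma p = 0.0469, exact p = 0.125, of which 6 pairs allow 0.0312 at the least), where 8.47% of all genes had a p of 0.05 or less, against 3.81% over the 7 pairs. With the fat cell marker level as a covariate it was 0.69, again with a limma p under the threshold, where 17.3% of all genes had such a p. With the lymphocyte marker level instead it was -0.02.

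Endothelial markers varied with Cd274. Their mean differed between littermates by 0.93, -0.03, -1.74, -0.02, 0.02, 0.12 and -0.20 in pairs 1 and 3 to 8, so that the largest difference either way fell in the same pairs as for Cd274. Over the 14 libraries r was 0.92, and 0.70 without the OE/OE library of pair 4. None of the 10 endothelial markers was at 0 in any library or was called between genotypes, where 3.81% of all genes were called. Their mean log2 level ran from 11.6 to 12.4 in WT and from 10.4 to 12.8 in OE/OE. Their part in the Cd274 values was not tested. The single gene most like Cd274 was Lepr, the leptin receptor (r = 0.97, and 0.91 without that library).

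Around Cd274, neither its family nor its regulators were called. With 3.81% of all genes called, lists this short need not hold any. Of the B7 and CD28 family 7 of 10 genes were in the table, Pdcd1lg2, Pdcd1 and Ctla4 not among them, and 0 of the 7 was called. Vtcn1, the coinhibitory ligand B7-H4, had the lowest log2 difference of these, -0.47 (limma p = 0.103, exact p = 0.156). Of 9 genes that control PD-L1, 0 was called, with Cmtm6, which keeps PD-L1 at the cell surface, at 0.08 and the interferon receptor subunit Ifngr2 at -0.15. An antisense gene, AC119228.1, covers 511 bases (14.1%) of the Cd274 exons, and since the strand setting of the counting is not given in the sources used here, reads of the pair cannot be told apart.

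Nfatc2 encodes NFATc2 (NFAT1), which calcineurin dephosphorylates and sends to the nucleus when calcium rises. Nfatc2 (ENSMUSG00000027544.16, chromosome 2, 168476410 to 168601657, minus strand) had 5978, 3759, 3243, 5859, 2200, 2907 and 2835 normalized counts in the WT mice of pairs 1 and 3 to 8. Their OE/OE littermates had 4987, 5366, 3180, 7687, 3177, 4032 and 3783. The groups overlapped widely and the pairs differed in level, so the genotypes were compared between littermates. Litter and any other thing that the mice of a pair shared cannot be told apart.

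Pairs 3, 5, 6, 7 and 8 were higher in OE/OE by 0.39 to 0.53 on the log2 scale, pair 4 differed by -0.03 and pair 1 by -0.26. The log2 difference was 0.29 (standard error 0.11, 95% interval 0.05 to 0.53, limma p = 0.0231, exact p = 0.0625, adjusted p = 1.00), a fold of 1.22 (1.03 to 1.45). The smallest exact p that 7 pairs can give is 0.0156, so by that test Nfatc2 missed the threshold. The 6 pairs other than pair 4 gave 0.34 (limma p = 0.00958, exact p = 0.0625).

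**Figure D3:**
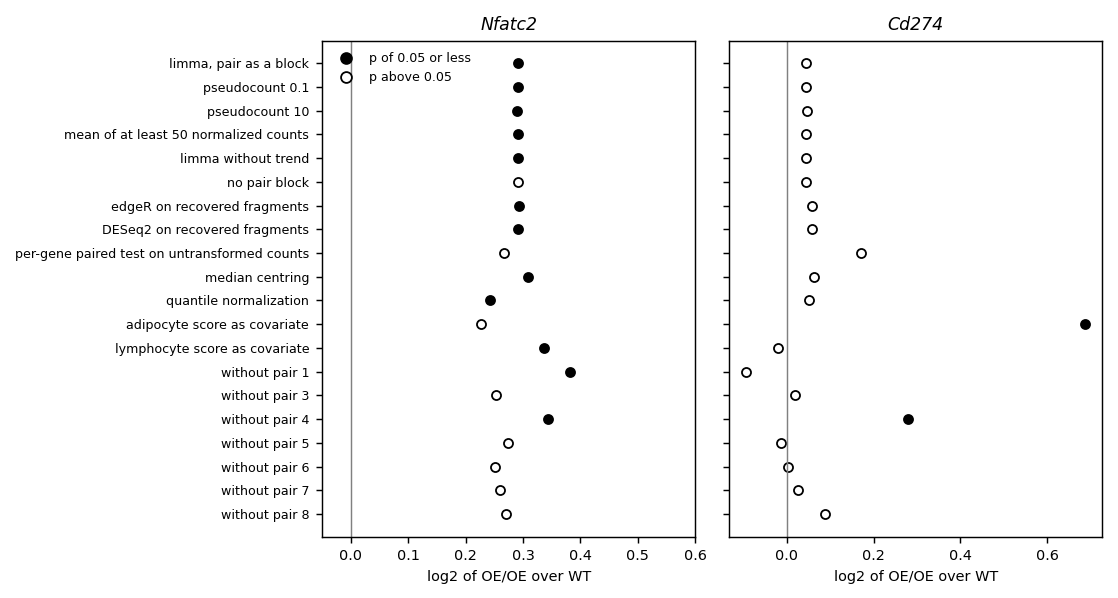
Log2 difference of Nfatc2 and Cd274 (horizontal axes, OE/OE over WT) under each way of processing (one per line), with filled points where p was 0.05 or less. Nfatc2 stayed between 0.23 and 0.38 with filled and open points mixed, whereas Cd274 was filled only without pair 4 and with the fat cell covariate.

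The direction of Nfatc2 was the same in all 19 alternatives, between 0.23 and 0.38, but the p was above 0.05 in 8 of them. Those 8 were the fit without the pair block, the study's per-gene paired test on untransformed counts, the fat cell covariate, and the leaving out of pair 3, 5, 6, 7 or 8. Without the block 1.13% of all genes had a p of 0.05 or less, and by the per-gene paired test 3.99%, with 0 of the 8 substrate genes among them in either case. Nfatc2 ran against the fat cell markers over the 14 libraries (r = -0.63, and -0.90 without the OE/OE library of pair 4), markers of which 9 of 10 had a log2 difference below 0 and 6 were called lower in OE/OE. It also ran against the fibroblast markers (r = -0.38, and -0.63 without that library). The part of the fat cell markers in the difference was not tested beyond that covariate, and that of the fibroblast markers was not tested.

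Of 10 other genes of the NFAT pathway 0 was called, where 3.81% of all genes were. A list of this size need not hold a called gene. Nfatc1 and Nfatc3, which encode the sister factors, had log2 differences of 0.03 and 0.07, the calcineurin catalytic subunit gene Ppp3ca had 0.03, and Rcan1, a feedback inhibitor of calcineurin induced by NFAT, had -0.20 (limma p = 0.431, exact p = 0.625). The genes most like Nfatc2 over the libraries were Fam177a (r = 0.93), Stau1, an RNA-binding protein (r = 0.92), and Gas2l1 (r = 0.90).

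Hif1a encodes the oxygen-regulated subunit of hypoxia-inducible factor 1, which is hydroxylated and degraded when oxygen is present. Hif1a (ENSMUSG00000021109.13, chromosome 12, 73901375 to 73947530, plus strand) had 12780, 11502, 10950, 19775, 12827, 30976 and 26755 normalized counts in the WT mice of pairs 1 and 3 to 8. Their OE/OE littermates had 11275, 10788, 9584, 23502, 12836, 37071 and 28447. Both littermates of pairs 5, 7 and 8 were high and both of the other 4 pairs were low. The levels thus divided by littermate pair and not by genotype. Litter and any other thing that the mice of a pair shared cannot be told apart.

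The log2 difference of Hif1a was 0.02 (standard error 0.09, 95% interval -0.18 to 0.21, limma p = 0.831, exact p = 0.828), and it was 0.05 without pair 4 (limma p = 0.55, exact p = 0.531). The SD over pairs of its log2 ratio was 0.19, narrower than in all but 14.9% of genes. The pair accounted for 98.2% of the sum of squares of its log2 level, a share higher than in 99.9% of genes, whose median was 73.9%, and the genotype for 0.0211%.

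**Figure D4:**
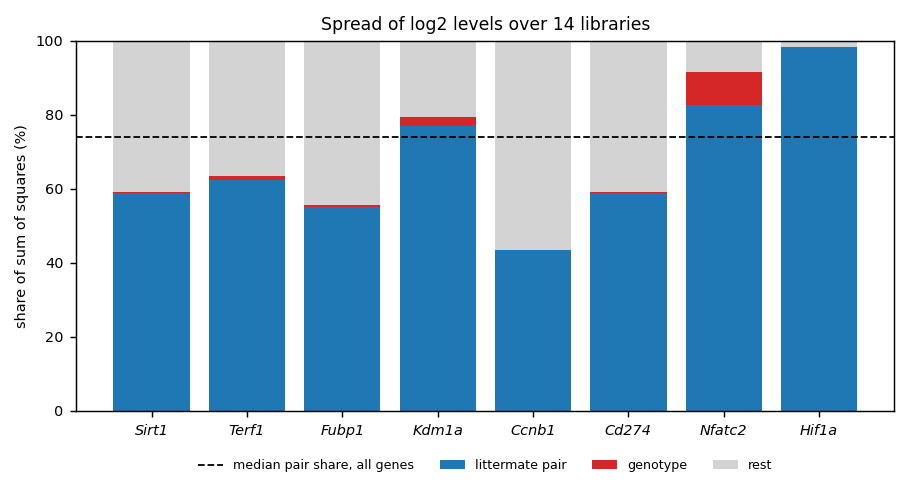
Share of the sum of squares of the log2 level over 14 libraries (vertical axis, percent, from 0) that went with the littermate pair, the genotype and the rest, for each of the 8 genes; the dashed line is the median pair share of all genes, 73.9%. The pair share ran from 43.5% for Ccnb1 to 98.2% for Hif1a, and the genotype share reached 8.86% for Nfatc2.

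Genes around HIF1A were compared as regulators and as targets. Of 9 genes for partner subunits and oxygen sensing, 0 was called, where 3.81% of all genes were. Vhl, which targets HIF1A for degradation, had a log2 difference of 0.01 and Egln1, the main prolyl hydroxylase, 0.08. Of 19 known HIF targets, 3 were called, all higher in OE/OE, where 1.95% of all genes were called higher. P4ha2, a collagen prolyl hydroxylase, averaged 1003 ± 827 normalized counts over WT and 1707 ± 1511 over OE/OE mice (SD, n = 7). Its log2 difference was 0.59 (limma p = 0.0310, exact p = 0.0469), with 6 of 7 pairs higher and pair ratios from -0.27 to 2.13. Ddit4, a stress-induced inhibitor of mTORC1, had 0.23 (limma p = 0.0330, exact p = 0.0625), and Kdm3a, a histone H3 lysine 9 demethylase, 0.17 (limma p = 0.0418, exact p = 0.0469).

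The other 16 targets did not pass the test. Among them Vegfa had a log2 difference of 0.04, Ldha 0.03, Slc2a1 -0.03 and Car9 -0.21, the last with a standard error of 0.33 and pair ratios from -1.33 to 1.35. Mxi1, an antagonist of MYC, was higher in OE/OE in 7 of 7 pairs (log2 difference 0.15, limma p = 0.0712, exact p = 0.0156). The median of the 19 was 0.08, and their mean was higher in OE/OE by 0.08 to 0.18 in 6 of 7 pairs and differed by -0.21 in pair 4 (exact p = 0.250). The mean of the targets did not follow Hif1a over the 14 libraries (r = 0.13), while the mean of its regulators did (r = 0.80) and that of the sirtuins other than Sirt1 ran against it (r = -0.89). The gene most like Hif1a was Atp13a3, a polyamine transporter (r = 0.97). An antisense gene that is itself in the table, Gm15283, covers 330 bases (5.6%) of the Hif1a exons. Gm49321, a protein-coding gene on the same strand that is not in the table, shares 148 bases (2.51%) with them.

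Over all 11 lists of pathway genes, 114 of 120 were in the table and 4 were called (3.51%, against 3.81% of all genes), namely P4ha2, Ddit4, Kdm3a and Aurka. None of the 4 passed the adjustment. Without the pair block 0 of the 114 was called, without the trend 2 were, and leaving out single pairs gave 2 to 16, the highest without pair 4. Of 7 further genes linked to USP22, 0 was called, and Esr1, the estrogen receptor gene, had a log2 difference of 0.18.

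**Figure D5:**
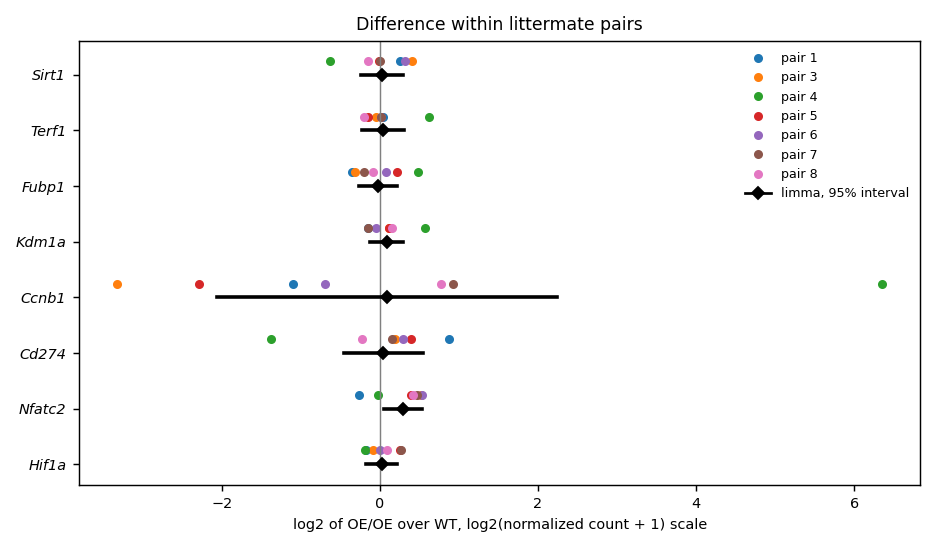
Log2 of OE/OE over WT (horizontal axis) for the 8 genes, with a coloured point per littermate pair and, in black, the limma estimate with its 95% interval. The intervals of 7 genes include 0, that of Nfatc2 runs from 0.05 to 0.53, and that of Ccnb1 is the widest, from -2.06 to 2.24.

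The intervals set how large a difference these 7 pairs leave room for. For Sirt1, Terf1, Fubp1, Kdm1a and Hif1a they ran from -16.7% to 23.5% of the WT level, which for Fubp1 was -16.7% to 15.8% and for Terf1 -14.3% to 23.5%. That of Cd274 was wider, -26.9% to 45.3%, and that of Ccnb1 spanned -76.1% to 372%. A p above the threshold therefore does not show equal levels, least of all for Ccnb1.

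Per kilobase of exon, the 8 genes differed widely in level. In WT, Hif1a was the highest at 3042 ± 1375 normalized counts per kilobase and Kdm1a came next at 719 ± 89.1 (SD, n = 7), followed by Sirt1 at 406, Nfatc2 at 362, Cd274 at 261, Fubp1 at 122, Terf1 at 54.7 and Ccnb1 at 31.2. Neighbours in this order overlapped over the WT mice for Sirt1 and Nfatc2, for Nfatc2 and Cd274, and for Terf1 and Ccnb1. With the length of the longest coding transcript in place of all exons, Nfatc2 came before Sirt1 and Fubp1 before Cd274. Fubp1 has 15500 bases of annotated exon over 20 transcripts, against 6523 in its longest coding transcript. On that measure the WT ranges overlapped too, at 322 to 876 for Nfatc2 and 399 to 609 for Sirt1. They were 243 to 332 for Fubp1 and 224 to 289 for Cd274.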

How the data were processed

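Poly(A) RNA from MECs of 7 littermate pairs (1 WT and 1 Usp22 OE/OE mouse each, all separate mice) was sequenced. The authors mapped read pairs to mm10 with TopHat2 2.0.10, counted fragments per GENCODE gene with HTSeq 0.6.0, dropped genes that did not reach 10 fragments in 7 or more libraries and scaled by DESeq 1.18.0 size factors. What was deposited is thus a linear signal (normalized counts). Dividing each library by its smallest step returned whole fragments for 100% of values (within 0.01), which gave the depth. limma 3.58.1 in R 4.3.3 was fitted with a trend on log2(normalized count + 1) of all 16124 genes, two-sided, with the pair as a block. Fold changes on this scale understate those of low genes. The study's per-gene paired test, edgeR 4.0.16 and DESeq2 1.42.0 on recovered fragments were alternatives. Exact sign flips used 128 patterns. All gene identifiers matched GENCODE M21 (GRCm38), and promoters came from RefSeq. The pairs come from the labels: deviations of littermates from their group means had r of 0.171 to 0.748, against a median of -0.15 for other combinations. Since each genotype was centred on its own mean, positive values within pairs push the others below 0.

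Named genes are the 8 members, list genes with an unadjusted p of 0.05 or less, the 3 genes most like each member, and Usp22; other list genes were named as examples after their values were seen. Members and lists were chosen with earlier results of these data known. Transcript matches of at least 100 bases at 95% identity counted as near copies. In simulated data of 16124 genes for this comparison, 93.5% of 200 genes changed by 1 on the log2 scale were recovered at the unadjusted threshold. There, 4.77% of unchanged genes were called. Each gene was drawn independently, without litter effects or a library that stands apart. These shares therefore check the fit and are not the sensitivity for the real data. Depth limits the precision of low counts, here those of Ccnb1.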

Additional observations from a re-analysis of the deposited data

Results flagged for a closer look

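In 3 of 16 groups of 7 mice (8 genes, 2 genotypes) the highest or lowest mouse lay farther from its nearest neighbour, as a share of the range of its group, than Dixon's 95% limit, where chance gives 0.8 such groups. All 3 were the OE/OE mouse of pair 4, so they are not 3 independent events. It had the lowest Sirt1 value of its group, 1334 normalized counts with the next mouse at 2125, a gap of 0.577 of the range. Its Kdm1a value was the highest, 6277 with the next at 4484 (gap 0.577). Its Ccnb1 value was the highest, 731 with the next at 239 (gap 0.681). The gaps were taken on untransformed normalized counts, the 0.8 assumes normally distributed values, and the flags depend on the scale. On the log2 scale of the fits its Ccnb1 value was 9.52, with the next at 7.91 and the lowest of the group at 3.24. That gap is a smaller share of the range. Its Cd274 value, not flagged, was 8.29 on that scale, with the next at 9.81 and the highest at 10.65. In the same library the mean of 22 mitotic genes was at 9.89 on the log2 scale, the highest of all 14, and the mean of 10 endothelial markers at 10.4, the lowest. What sets this library apart was not tested.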

How the results depend on the processing

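Over 19 alternatives for each of the 8 genes, 120 of the 152 values kept their direction and their side of the threshold. Without the pair block 182 genes, 0 of the 8 and 0 pathway genes were called, and Nfatc2 kept 0.29. The per-gene paired test called 0 of the 8, and the fit without the trend 2 pathway genes. The fat cell score as a covariate called 2794 genes and 33 pathway genes, and turned Terf1 to -0.10, Kdm1a to -0.13 and Ccnb1 to -1.95. Ccnb1 was -0.31 with edgeR and -0.34 with DESeq2, Cd274 -0.020 with the lymphocyte score, and Sirt1 and Hif1a -0.014 and -0.018 after quantile normalization. The cause was not tested. All of these alternatives were planned.

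Leaving out each pair in turn gave 381 to 1366 genes called (without pairs 6 and 4; 1196 without pair 1), 0 to 2 of the 8 and 2 to 16 pathway genes. The log2 difference ran from -0.038 to 0.14 for Sirt1, -0.056 to 0.081 for Terf1, -0.11 to 0.028 for Fubp1, 0.0019 to 0.12 for Kdm1a, -0.96 to 0.66 for Ccnb1, -0.095 to 0.28 for Cd274, 0.25 to 0.38 for Nfatc2 and -0.021 to 0.054 for Hif1a, and the SD of the Ccnb1 ratios from 1.67 to 3.44. Ccnb1 had 9 fragments in its lowest library of each genotype, where its ratios rest on few reads; no library had under 161 fragments for any of the other 7 genes.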
